A study of Mus musculus with 8 samples.

Results

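The genes described here are 10 mouse genes of the hypoxia response and of glucose uptake and use, out of 22609 gene symbols counted in each library: Vegfa, Slc2a1, Bnip3, Car9, Ankrd37, Egln3, Pdk1, Hk2, Pfkfb3 and Ndrg1. They were chosen by name, as genes known to respond to low oxygen. All 10 were found in the gene tables and all 10 passed the filter on low counts. The libraries came from 2 lines of immortalized mouse dental papilla cells, the mesenchymal cells of the tooth germ that give rise to dental pulp and to odontoblasts. The iBmp2fx/fx line carries Bmp2 alleles flanked by loxP sites (floxed), and the iBmp2ko/ko line carries deleted Bmp2 alleles. Bmp2 encodes bone morphogenetic protein 2, a growth factor of the tooth and bone. Total RNA was taken from each line after 6, 24, 48 and 72 h of culture, as 1 library per line and time, 8 libraries in all. Both lines are immortalized, no agent that lowers oxygen is named for any group, and no strain or animal age is given in the sources used here. Because each genotype is 1 line, the genotype and any other difference between the lines cannot be told apart. The p-values below rest on libraries of different culture times. In the main genotype test they measure the spread between those times. In the test that pairs libraries of equal culture time they measure how the difference between the lines varies from time to time. In the tests on culture time they measure the scatter around a fitted line.

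Cells sense oxygen through the transcription factors called hypoxia-inducible factors (HIF). In oxygen, prolyl hydroxylases mark the HIF alpha subunit for destruction through the von Hippel-Lindau protein, and when oxygen falls the subunit lasts, pairs with its partner Arnt and binds short DNA motifs near its target genes. The targets raise glucose import and glycolysis, turn pyruvate away from the mitochondria, remove mitochondria, keep the pH of the cell, and signal for new vessels. Several of these genes also answer to growth signals, to nutrients and to crowding of the cells in culture.

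The core motif of the HIF binding site is ACGTG or, with another first base, GCGTG, and promoters were searched for both words on both strands (CACGT and, for the second word, CACGC in reverse). Where the first word lay on both strands of one stretch, that stretch counted as 2 sites. RefSeq promoter sequence (build GRCm38.p6) was found for 9 of the 10 genes, Ndrg1 being the gene without an entry. In the 250 bases before a start site, 9 of 9 genes held at least 1 of the words in at least 1 promoter, against 41.5% of 27025 gene symbols, and 8 of 9 held ACGTG, against 18.5%. The member promoters were also richer in G and C, with a median of 62.2% (range 38.4 to 72.4%) against 52.4% over all promoters. The last 120 bases before the start site are printed for the 7 genes that held a word in that stretch, to show where the words lie close to the start. Pdk1 held GCGTG alone, and the stretches of Hk2, Pfkfb3, Car9 and Ankrd37 held ACGTG alone. Capitals mark the words, in either orientation, and each sequence reads 5′ to 3′ in the direction of the gene.

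Slc2a1: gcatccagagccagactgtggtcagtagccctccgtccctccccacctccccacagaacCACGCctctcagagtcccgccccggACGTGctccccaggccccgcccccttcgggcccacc

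Hk2: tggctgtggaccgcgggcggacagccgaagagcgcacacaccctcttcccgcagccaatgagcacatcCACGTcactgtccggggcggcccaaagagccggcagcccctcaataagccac

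Pfkfb3: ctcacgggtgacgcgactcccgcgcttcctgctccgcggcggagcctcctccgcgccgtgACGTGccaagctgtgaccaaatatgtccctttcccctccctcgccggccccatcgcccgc

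Pdk1: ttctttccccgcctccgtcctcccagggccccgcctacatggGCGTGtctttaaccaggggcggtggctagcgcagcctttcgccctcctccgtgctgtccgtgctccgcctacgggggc

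Bnip3: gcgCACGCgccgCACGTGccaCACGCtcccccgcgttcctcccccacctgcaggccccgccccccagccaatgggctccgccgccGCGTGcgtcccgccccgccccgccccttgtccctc

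Car9: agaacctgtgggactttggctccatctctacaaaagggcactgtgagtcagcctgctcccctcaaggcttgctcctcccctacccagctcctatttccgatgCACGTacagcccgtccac

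Ankrd37: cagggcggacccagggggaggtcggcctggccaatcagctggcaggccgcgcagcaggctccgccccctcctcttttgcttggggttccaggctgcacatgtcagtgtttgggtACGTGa

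The stretches lie at Slc2a1 chr4:119108625-119108744 on the plus strand, Hk2 chr6:82774455-82774574 on the minus strand, Pfkfb3 chr2:11553930-11554049 on the minus strand, Pdk1 chr2:71873104-71873223 on the plus strand, Bnip3 chr7:138909507-138909626 on the minus strand, Car9 chr4:43506906-43507025 on the plus strand and Ankrd37 chr8:45999851-45999970 on the minus strand. Counting back from the start site, the nearest word in the promoter printed began at base -36 in Slc2a1, -52 in Hk2, -60 in Pfkfb3, -78 in Pdk1, -35 in Bnip3, -18 in Car9 and -6 in Ankrd37. Pfkfb3 and Pdk1 each have a second promoter in RefSeq, with a word from base -52 in Pfkfb3 and none in Pdk1. Bnip3 carried 5 sites in the printed stretch. Vegfa and Egln3 had none there, and held the words farther out, from base -211 in the second of 2 Vegfa promoters and from base -229 in Egln3. A match is a description of the letters and not of binding, which was not measured.

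The libraries held 25890110 to 32415665 reads assigned to genes, so that 3 reads, taken as the floor, corresponded to 0.0925 to 0.116 CPM. CPM are gene reads scaled to a common library total after TMM normalization, and intervals from counts cover counting error only. Bmp2 had 1 read in the fx/fx library of 24 h and 0 in the other 7, so its own reads could not check the genotype labels. Of 12 dental mesenchyme markers, 10 were above 3 reads in every library and Barx1 was at or under 3 reads in all. Summed markers of other cells were low, at 0.289 to 1.82 CPM for 6 epithelial genes, 0.948 to 3.59 CPM for 6 endothelial genes and 2.95 to 14.4 CPM for 6 leukocyte genes, and Ptprc, the pan-leukocyte antigen, stood at or under 3 reads everywhere. Dspp, the odontoblast matrix gene, was also at or under 3 reads in all libraries. In bulk RNA, fewer cells of a kind and less RNA per cell cannot be told apart.

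One library stood apart from its label's neighbours. The library labelled ko/ko, 24 h, lay closest to the fx/fx library of 6 h, with a root mean square log2 difference of 0.199 over 13053 genes, against 0.375 to 1.11 for the other 27 pairs of libraries. Over the 10 hypoxia genes the same distance was 0.204, against 0.562 to 1.58 for the other pairs. The difference was still above sampling noise, with a chi-square per gene of 4.98, where the other pairs reached at least 39.8. The summed odontoblast markers were 14.6 CPM in it, against 14.1 to 62.7 CPM in the fx/fx libraries and 1.69 to 3.14 CPM in the other ko/ko libraries. Most of that sum was Alpl, the alkaline phosphatase of mineralizing cells. Alpl was at 12.9 CPM in it, against 12.6 to 61.7 CPM in fx/fx and 0.551 to 1.45 CPM in the other ko/ko libraries. Of the same list, Bglap at 0.413 CPM lay inside the ranges of both lines, and Phex at 1.09 CPM lay above every fx/fx library. The collagen gene Col3a1 was at 910.7 CPM in it, against 899.3 to 1166.2 CPM in fx/fx and 1873.2 to 3593.9 CPM in the other ko/ko libraries. The Alpl and Col3a1 values lay with fx/fx and not with ko/ko, so the label of this library is in doubt, and every 24 h ratio below may not compare the 2 lines. It is therefore shown apart. Genotypes were compared without the 24 h pair, as the study's methods name harvests at 6, 48 and 72 h alone, and the time trend left out this library and kept the other 7.

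**Figure D1:**
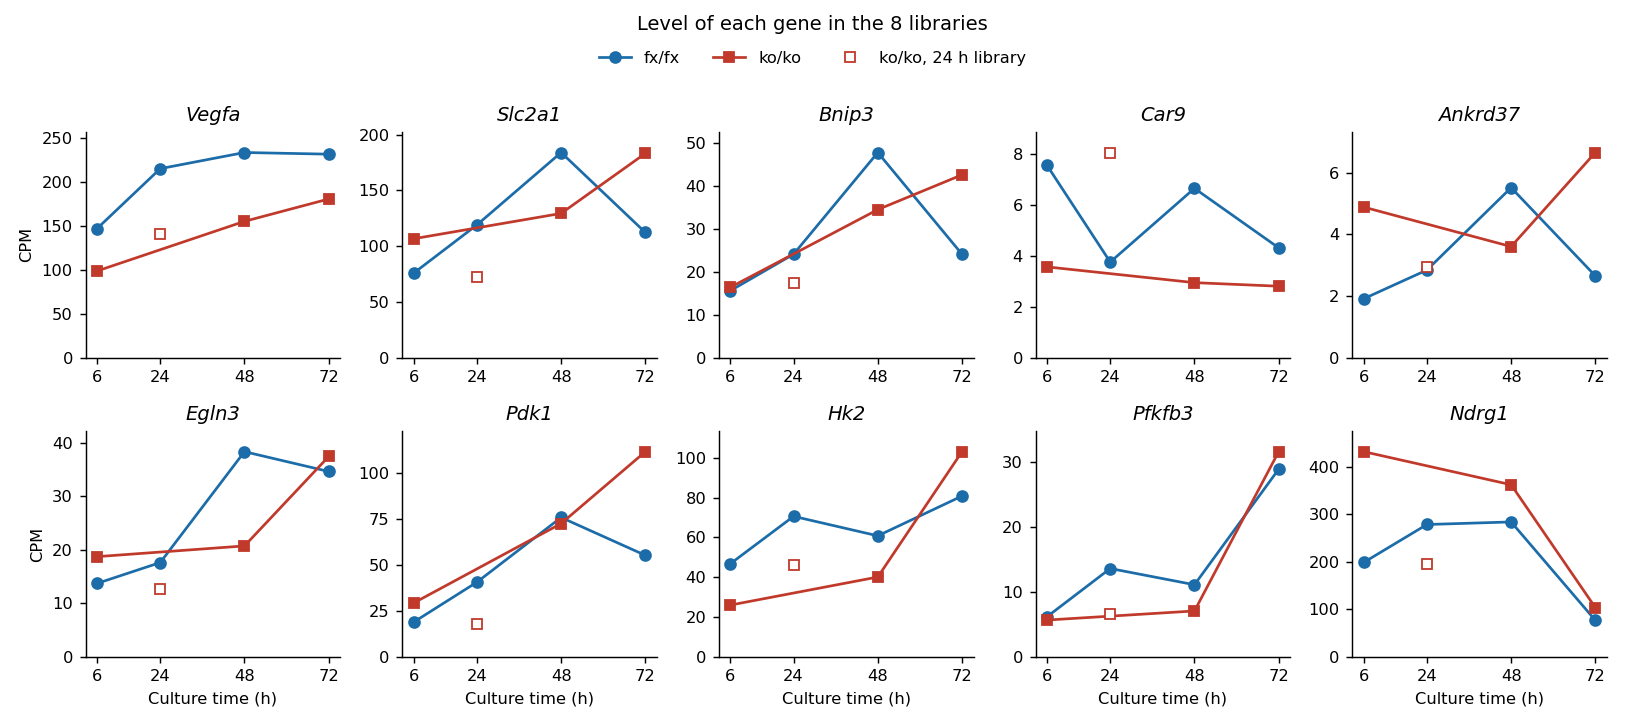
Level of each of the 10 genes in CPM (vertical axis, from 0) against culture time in hours (horizontal axis), with 1 library per point. Blue circles are fx/fx, filled red squares ko/ko, and the open square is the library labelled ko/ko, 24 h. Vegfa of ko/ko lies below fx/fx at 6, 48 and 72 h, the label of the open square being in doubt, Pfkfb3 is highest at 72 h in both lines, and Ndrg1 is lowest at 72 h in both.

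All 10 genes were expressed, over a wide range of levels. Scaled to transcript length as RPKM (CPM per kilobase of exons) and averaged over the 7 libraries, Slc2a1 led with 45.6 ± 14.1 (SD, n = 7), followed by Vegfa with 42.0 ± 11.7 and Ndrg1 with 37.6 ± 19.8. These 3 genes did not differ beyond their spread. A middle group was formed by Bnip3 at 12.9 ± 5.57 RPKM, Hk2 at 10.3 ± 4.39, Egln3 at 9.71 ± 3.93 and Pdk1 at 7.42 ± 4.09, in which neighbours did not differ beyond their spread. Ankrd37 at 2.86 ± 1.23 RPKM, Pfkfb3 at 2.12 ± 1.55 and Car9 at 1.96 ± 0.807 were lowest. Within a gene, the highest of the 7 libraries exceeded the lowest by 2.37-fold for Vegfa and by up to 5.9-fold for Pdk1.

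Glucose enters most cells through facilitative carriers, and Slc2a1 encodes GLUT1, the carrier that HIF raises. Slc2a1 (chr4:118781316-118809935, mm9, plus strand) stood at 75.8, 119.0, 183.9 and 112.2 CPM in fx/fx at 6, 24, 48 and 72 h. In ko/ko it stood at 106.6, 129.3 and 183.1 CPM at 6, 48 and 72 h, and at 72.4 CPM in the library labelled 24 h. The fx/fx line was highest at 48 h and the ko/ko line at 72 h, and the ko/ko range of 6, 48 and 72 h lay inside the fx/fx range.

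Hk2 encodes hexokinase 2, which traps glucose in the cell as glucose 6-phosphate. Hk2 (chr6:82675019-82724448, mm9, minus strand) measured 46.8, 70.6, 60.8 and 80.8 CPM in fx/fx, and 26.0, 40.1 and 103.1 CPM in ko/ko at 6, 48 and 72 h. The library labelled ko/ko, 24 h, had 46.3 CPM. Hk2 in ko/ko was below fx/fx at 6 and 48 h and above it at 72 h.

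Pfkfb3 encodes an enzyme that makes fructose 2,6-bisphosphate, the strongest activator of phosphofructokinase. Its levels (chr2:11393057-11423728, mm9, minus strand) were 6.18, 13.6, 11.1 and 28.9 CPM in fx/fx, and 5.66, 7.06 and 31.6 CPM in ko/ko at 6, 48 and 72 h, beside 6.53 CPM in the 24 h library. Both lines were low early and reached their highest level at 72 h, within 1.09-fold of each other (95% counting interval 0.991 to 1.21).

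Pdk1 encodes pyruvate dehydrogenase kinase 1, which closes the entry of pyruvate into the mitochondrial cycle. The gene (chr2:71711281-71741915, mm9, plus strand) gave 18.9, 40.6, 75.8 and 55.2 CPM in fx/fx and 29.3, 72.5 and 111.6 CPM in ko/ko at 6, 48 and 72 h. It had 17.9 CPM in the library labelled ko/ko, 24 h, the lowest of all 8. From 6 to 48 h, Pdk1 was 4.01-fold higher in fx/fx (counting interval 3.66 to 4.39) and 2.47-fold higher in ko/ko (2.29 to 2.67).

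Egln3 encodes a HIF prolyl hydroxylase, PHD3, which is itself a HIF target and so acts as a brake on the response. At chr12:55279968-55304847 (mm9, minus strand), it had 13.7, 17.6, 38.3 and 34.6 CPM in fx/fx and 18.7, 20.7 and 37.4 CPM in ko/ko at 6, 48 and 72 h, with 12.6 CPM in the library labelled ko/ko, 24 h. The fx/fx line had reached its high level by 48 h, whereas ko/ko at 48 h was still near its 6 h value.

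Vegfa encodes the main vascular endothelial growth factor, the secreted ligand that draws in vessels. Vegfa (chr17:46153942-46169326, mm9, minus strand) measured 147.2, 215.5, 233.9 and 232.0 CPM in fx/fx. The ko/ko libraries of 6, 48 and 72 h had 98.8, 155.4 and 180.9 CPM, and the library labelled ko/ko, 24 h, had 140.7 CPM. By the labels it was the only one of the 10 genes lower in ko/ko at all 4 times, a pattern that 13.2% of 13053 genes showed, but the 24 h value comes from the library in doubt and is near the 147.2 CPM of fx/fx at 6 h. Over the 6 libraries compared, however, the 2 lines overlapped, since ko/ko at 48 and 72 h exceeded fx/fx at 6 h.

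Bnip3 encodes a mitochondrial outer membrane protein that directs mitochondria to autophagy. Its counts (chr7:146082519-146101202, mm9, minus strand) gave 15.6, 24.1, 47.8 and 24.1 CPM in fx/fx and 16.4, 34.5 and 42.6 CPM in ko/ko at 6, 48 and 72 h, with 17.4 CPM in the 24 h library. The lines started at nearly the same level at 6 h, with a ratio of ko/ko to fx/fx of 1.05 (counting interval 0.924 to 1.19).

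Car9 encodes carbonic anhydrase 9, a membrane enzyme that keeps the acid balance of cells that ferment glucose. The gene (chr4:43519838-43526601, mm9, plus strand) was low, with 68 to 241 reads per library. Its levels were 7.56, 3.76, 6.66 and 4.32 CPM in fx/fx and 3.57, 2.95 and 2.81 CPM in ko/ko at 6, 48 and 72 h. The library labelled ko/ko, 24 h, had 8.07 CPM, the highest of the 8. Car9 was the one gene whose fx/fx and ko/ko libraries of 6, 48 and 72 h did not overlap, and it was lower in ko/ko, as were 10.1% of 13121 genes by that count. With all 8 libraries the groups overlapped.

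Ankrd37 encodes an ankyrin repeat protein known as a HIF target. It lies at chr8:47082256-47085221 (mm9, minus strand) and had 1.91, 2.84, 5.51 and 2.65 CPM in fx/fx, and 4.88, 3.60 and 6.65 CPM in ko/ko at 6, 48 and 72 h, beside 2.93 CPM at 24 h. Of its exon bases, 24.9% overlap exons of Lrp2bp and 4.06% those of Ufsp2, both on the opposite strand. Smaller overlaps with opposite-strand genes are annotated for Car9 (9.29% of exon bases, Gm12454), Ndrg1 (6.36%, Gm17035, and 2.08%, Gm2895) and Slc2a1 (3.68%, Gm12868). Lrp2bp stood at 0.0981 to 1.85 CPM and Ufsp2 at 67.6 to 86.5 CPM, and since the strand setting of the counting is not given in the sources used here, the share of such neighbours in the reads of these 4 genes was not tested.

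Ndrg1 encodes a stress-responsive cytoplasmic protein that is raised by hypoxia and in differentiating cells. Ndrg1 (chr15:66760883-66801202, mm9, minus strand) had 198.9, 278.8, 284.2 and 76.8 CPM in fx/fx and 432.3, 362.6 and 103.7 CPM in ko/ko at 6, 48 and 72 h, with 195.6 CPM in the library labelled ko/ko, 24 h. Unlike the glycolytic members it was lowest at 72 h in both lines, at 0.27 of its 48 h level in fx/fx (counting interval 0.258 to 0.283) and at 0.286 in ko/ko (0.274 to 0.299).

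To find how these genes followed culture time, the log2 level was fitted on the log2 of hours, with the genotype as a covariate, over 13208 genes in 7 libraries by the edgeR quasi-likelihood test. The slope, a log2 change per doubling of culture time, was above 0 for 8 of the 10 genes, and its median was 0.27, against 0.01 over all genes. None of the 10 passed an adjusted p of 0.05, as 0.0% of all genes did. At an unadjusted p under 0.05, 7 of 10 had a rising slope, where 14.7% of all genes did, and none had a falling one on the log2 scale of hours, where 11.4% did. The limma test on log2 CPM likewise gave 0 genes at an adjusted p of 0.05 and the same number of members, 7, without adjustment.

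The steepest slopes were those of Pfkfb3 and Pdk1, and the slopes of the genes were not tested against each other. Pfkfb3 had a slope of 0.55 ± 0.15 (SE, n = 7, adjusted p = 0.121, edgeR) and Pdk1 of 0.51 ± 0.07 (adjusted p = 0.0918). Bnip3 followed with 0.35 ± 0.09, Hk2 with 0.33 ± 0.10 and Egln3 with 0.32 ± 0.09, at edgeR adjusted p-values from 0.120 to 0.130. Vegfa had a shallower slope with little spread, 0.22 ± 0.04 (adjusted p = 0.108), and Slc2a1 one of 0.22 ± 0.08 (adjusted p = 0.149). The remaining slopes were 0.16 ± 0.13 for Ankrd37, -0.12 ± 0.09 for Car9 and -0.25 ± 0.19 for Ndrg1, none of which passed even without adjustment on this scale. With time in hours in place of log2 hours, 6 genes had a rising slope at an unadjusted p under 0.05 (16.3% of all genes), Slc2a1 no longer being among them, and Ndrg1 had a falling one (15.0% of all genes), again with none past an adjusted p of 0.05.

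These slopes rested in part on single libraries. When each library was left out, they ran from 0.19 to 0.39 for Hk2, 0.14 to 0.28 for Slc2a1, 0.04 to 0.32 for Ankrd37 and -0.45 to -0.11 for Ndrg1. The slopes of Vegfa (0.19 to 0.23) and Pdk1 (0.47 to 0.56) moved less. Without the ko/ko library of 48 h, 5 of the 10 genes passed an adjusted p of 0.05 (Vegfa, Egln3, Pdk1, Hk2 and Pfkfb3, adjusted p from 0.027 to 0.0484), and so did 1069 of all genes, 4.64% with a rising slope. Without the ko/ko library of 6 h, 4 remained at an unadjusted p under 0.05, namely Vegfa, Egln3, Pdk1 and Pfkfb3, where 3.39% of all genes had such a rising slope. Vegfa, Pdk1 and Pfkfb3 kept an unadjusted p under 0.05 without each of the 7 libraries in turn. In the 4 fx/fx libraries alone, 5 genes had a rising slope at an unadjusted p under 0.05, Vegfa, Egln3, Pdk1, Hk2 and Pfkfb3, where 5.28% of genes did. Culture time, cell density and the age of the medium cannot be told apart in this design.

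**Figure D2:**
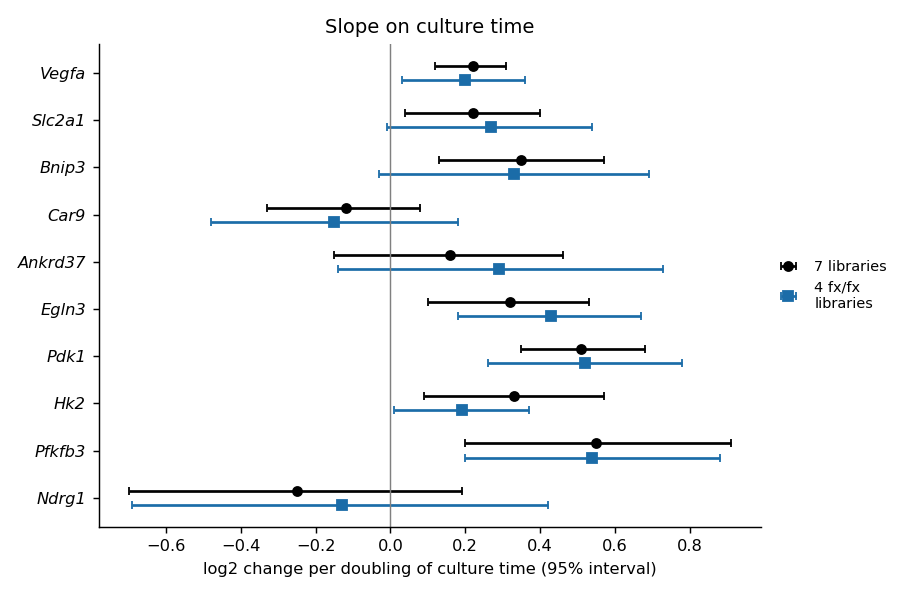
Slope of each gene on culture time, as log2 change per doubling of hours (horizontal axis), with its 95% interval. Black circles are the fit over 7 libraries and blue squares the fit over the 4 fx/fx libraries. The 7-library intervals of Vegfa, Slc2a1, Bnip3, Egln3, Pdk1, Hk2 and Pfkfb3 lie above 0, and those of Car9, Ankrd37 and Ndrg1 include it.

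Whether the time course differed between the lines was asked with the interaction of genotype and time. None of the 10 genes passed, at an adjusted p of 1.0 for each and an unadjusted p from 0.204 to 0.955 (edgeR, 7 libraries), and 1.01% of all genes passed without adjustment. The largest differences in slope were 0.26 ± 0.19 for Hk2 and -0.26 ± 0.26 for Ankrd37 (SE, ko/ko minus fx/fx). Without the ko/ko library of 6 h, Hk2 and Pfkfb3 had an unadjusted p under 0.05, as did 15.2% of all genes in that fit, and without that of 48 h Hk2 did, as did 2.04% of all genes.

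The last day of culture was also read step by step. Between 48 and 72 h, 6 of the 10 genes were lower in fx/fx and higher in ko/ko, a pattern seen in 10.8% of 13053 genes. Slc2a1 went to 0.61 of its 48 h level in fx/fx (counting interval 0.585 to 0.637) and to 1.42 in ko/ko (1.36 to 1.48). Bnip3 went to 0.504 in fx/fx and 1.24 in ko/ko, Ankrd37 to 0.48 and 1.85, and Pdk1 to 0.728 and 1.54. Egln3 fitted the same pattern with a small step in fx/fx, 0.905 (0.833 to 0.983), against 1.8 in ko/ko, and Vegfa in fx/fx was level at 0.992 (0.96 to 1.02), against 1.16 in ko/ko. Hk2 and Pfkfb3 were higher at 72 h in both lines, as 38.2% of genes were, by 1.33- and 2.62-fold in fx/fx and by 2.57- and 4.48-fold in ko/ko. Car9 and Ndrg1 were lower in both, as 42.3% of genes were, but the step of Car9 in ko/ko, 0.952 (0.685 to 1.32), lay within counting error. Each of these steps compares 1 library with 1 other, so it has no replicate and no test, and the pattern was chosen after the values were seen.

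**Figure D3:**
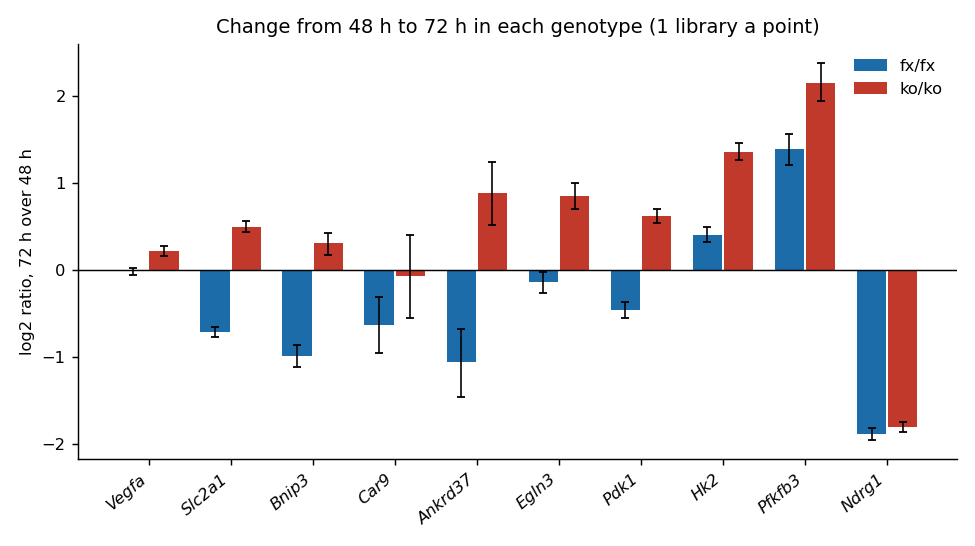
Change from 48 to 72 h as the log2 ratio of CPM (vertical axis) for each gene, with blue bars for fx/fx and red bars for ko/ko and 95% counting intervals. Vegfa, Slc2a1, Bnip3, Ankrd37, Egln3 and Pdk1 have a bar below 0 in fx/fx and above 0 in ko/ko. Hk2 and Pfkfb3 point up and Car9 and Ndrg1 down in both lines. The intervals of Vegfa in fx/fx and of Car9 in ko/ko include 0.

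The main comparison of the study was between the genotypes, and it gave a median near 0 for the hypoxia genes. Over 3 fx/fx and 3 ko/ko libraries, 5 of the 10 genes had a lower and 5 a higher fitted level in ko/ko, with a median log2 fold change of -0.01, against 0.03 over 13121 genes. The study names limits both with and without adjustment. None passed the unadjusted limit of its methods, a log2 fold change over 1 with an unadjusted p under 0.05, which 7.35% of all genes passed, and none passed a log2 fold change of 1 or more with an adjusted p of 0.05 or less, which 2.19% passed (edgeR). At an unadjusted p under 0.05 without a fold limit there was 1, Car9, where 14.0% of all genes passed. With all 8 libraries, the one in doubt included, it was Vegfa instead (unadjusted p = 0.0395, adjusted p = 0.483, edgeR). Vegfa also took the place of Car9 without the fx/fx library of 6 h, and Ankrd37 did without that of 48 h. Hk2 joined Car9 without the ko/ko library of 72 h. The share of all genes was not counted for these other fits. The limma test also called none of the 10 by either limit, and DESeq2 called Car9 by both, the unadjusted limit being passed by 7.84% of all genes in that fit.

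Car9 had the strongest difference. Its mean was 6.18 ± 1.67 CPM in fx/fx and 3.11 ± 0.404 CPM in ko/ko (SD, n = 3 each), a log2 fold change of -0.99 ± 0.31 (SE, 95% interval -1.72 to -0.25), with an edgeR adjusted p of 0.215. DESeq2 gave -1.0 with an adjusted p of 0.0429, a limit that 5.02% of all genes passed in that fit. The log2 fold change ranged from -1.19 to -0.84 when each library was left out, and Car9 passed the unadjusted limit without the ko/ko library of 6 h (-1.12) and without the fx/fx library of 72 h (-1.19). Without the fx/fx library of 6 h (-0.84) or of 48 h (-0.94) its unadjusted p was no longer under 0.05. With the 24 h libraries added it was -0.36 ± 0.40 (adjusted p = 0.746, edgeR, n = 4 each), as Car9 at 24 h was 2.14-fold higher in the library labelled ko/ko than in fx/fx.

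Vegfa had means of 204.4 ± 49.5 CPM in fx/fx and 145.0 ± 42.0 CPM in ko/ko (SD, n = 3 each), and a log2 fold change of -0.51 ± 0.28 (SE, adjusted p = 0.491, edgeR). Its ratios of ko/ko to fx/fx were 0.671, 0.653, 0.665 and 0.78 at 6, 24, 48 and 72 h, the 72 h ratio (counting interval 0.751 to 0.81) lying above the intervals of the other 3 (0.627 to 0.703 in all), and the 24 h ratio resting on the library in doubt. In the test that pairs the libraries of equal culture time, with time as a block, the log2 difference of ko/ko from fx/fx was -0.51 ± 0.10 for Vegfa (adjusted p = 0.011), -0.97 ± 0.20 for Car9 (adjusted p = 0.0135) and 0.63 ± 0.17 for Ndrg1 (adjusted p = 0.033, edgeR, 6 libraries). These were 3 of 10 genes at an adjusted p of 0.05, where 22.7% of all genes passed, and none of the 3 reached a log2 fold change of 1 with it, as 8.45% of all genes did. With the 24 h pair added to the blocked test, none of the 10 passed, and Vegfa had -0.53 ± 0.10 with an adjusted p of 0.0774.

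Ndrg1 without the block had means of 186.7 ± 104.2 CPM in fx/fx and 299.5 ± 173.1 CPM in ko/ko (SD, n = 3 each), and a log2 fold change of 0.70 ± 0.62 (SE, 95% interval -0.75 to 2.15, adjusted p = 0.699, edgeR).

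The other 7 genes passed no adjusted limit in either test. Ankrd37 was at 0.58 ± 0.45 and Pdk1 at 0.49 ± 0.58 on the log2 scale (SE, adjusted p = 0.658 and 0.787, edgeR), with Pdk1 at 0.52 ± 0.18 (95% interval 0.09 to 0.95, unadjusted p = 0.0235, adjusted p = 0.0798) under the block. Slc2a1 was at 0.16 ± 0.34 (95% interval -0.64 to 0.97), Bnip3 at 0.08 ± 0.47, Egln3 at -0.19 ± 0.42, Hk2 at -0.18 ± 0.48 and Pfkfb3 at -0.10 ± 0.78. The widest interval was that of Pfkfb3, from -1.93 to 1.73, so differences of that size could not be told from 0. Leaving out single libraries turned the sign for Slc2a1, Bnip3, Egln3, Hk2 and Pfkfb3, and without the fx/fx library of 48 h Ankrd37 passed the unadjusted limit with 1.12 (adjusted p = 0.541).

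**Figure D4:**
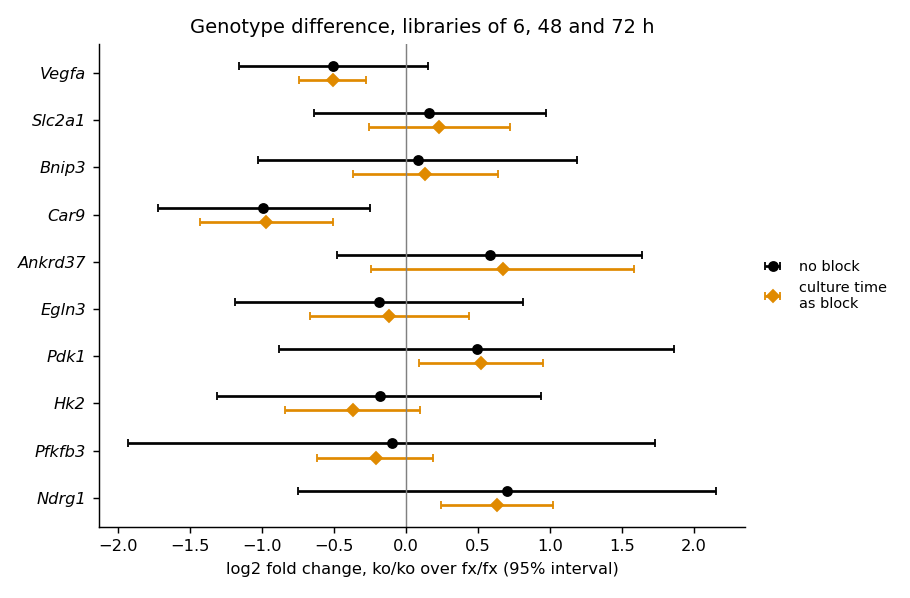
Log2 fold change of ko/ko over fx/fx (horizontal axis) with its 95% interval, over the libraries of 6, 48 and 72 h. Black circles are the test without a block and orange diamonds the test with culture time as a block. Without the block only the interval of Car9 stays below 0, and with it those of Vegfa and Car9 lie below 0 and those of Pdk1 and Ndrg1 above.

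At 24 h there is 1 library per label, that of ko/ko being the one whose label is in doubt, and the values are given without a test. At least 1.5-fold lower in the library labelled ko/ko than in fx/fx were 5 of the 10 genes, where 9.05% of 13053 genes were. Their ratios were 0.439 for Pdk1 (counting interval 0.394 to 0.489), 0.48 for Pfkfb3, 0.608 for Slc2a1, 0.653 for Vegfa and 0.656 for Hk2. Car9 was 2.14-fold higher (1.69 to 2.73), where 9.83% of genes were at least 1.5-fold higher. Set against all other libraries, this library was nearest to the fx/fx library of 6 h for 8 of the 10 genes, as it was for 47.2% of all genes, the exceptions being Bnip3 and Ankrd37.

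**Figure D5:**
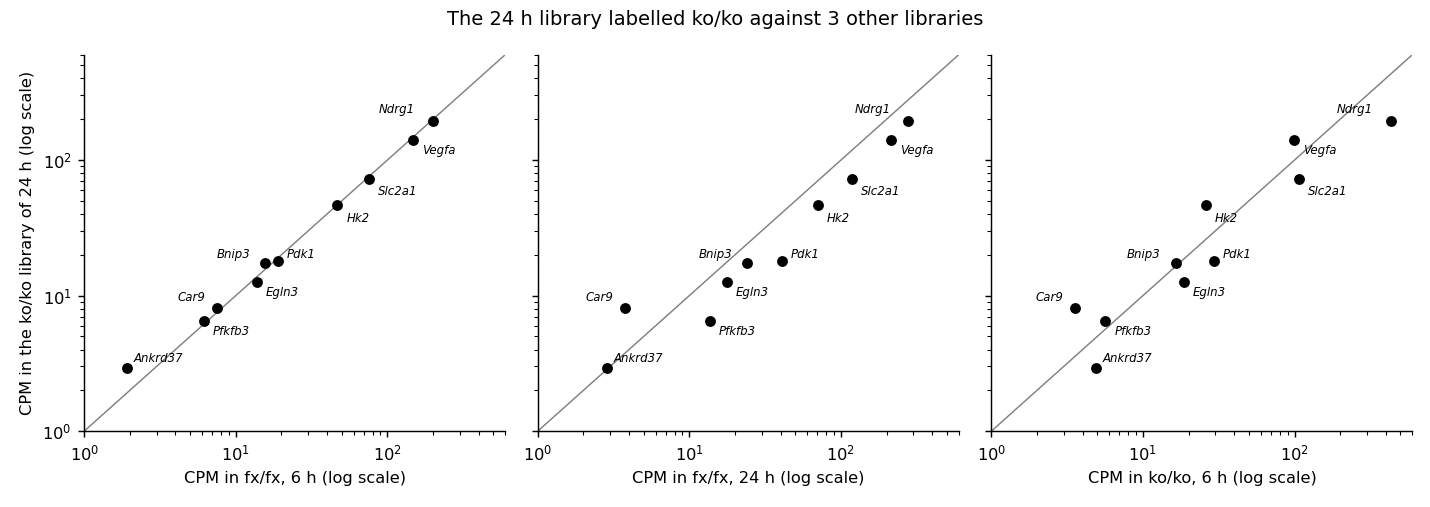
CPM of the 10 genes in the library labelled ko/ko, 24 h (vertical log axis) against the fx/fx library of 6 h, the fx/fx library of 24 h and the ko/ko library of 6 h (horizontal log axes, left to right). The grey line marks equal levels, and the points lie closest to it in the left panel.

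The rest of the pathway was read from lists of known genes. Some genes, Egln1, Egln2 and Car12 among them, stand on several lists and are counted in each. The median slope on time was 0.15 for glycolysis and lactate handling, 0.06 for the VEGF receptors, 0.04 for other hypoxia-induced genes, 0.02 for HIF subunits and regulators, -0.08 for paralogs and -0.15 for glucose transporters, against 0.01 over all genes. The median log2 fold change between genotypes was -1.12 for the VEGF receptors and lay between -0.06 and 0.15 for the other 5 lists, against 0.03 over all genes. Of 12 HIF subunits and regulators, 11 were tested, and none passed the unadjusted limit between the genotypes. Hif1a, the oxygen-labile subunit, had 280.2, 416.1, 335.9 and 417.9 CPM in fx/fx and 191.8, 373.6 and 446.7 CPM in ko/ko at 6, 48 and 72 h. The list had 3 rising slopes on time at an unadjusted p under 0.05 (14.7% of all genes), Hif1a with 0.23 ± 0.06, the prolyl hydroxylase Egln1 with 0.21 ± 0.06 and the HIF antagonist Cited2 with 0.22 ± 0.07, and 1 falling (11.4% of all genes), Egln2 with -0.13 ± 0.04. Hif1a between the genotypes was at -0.05 ± 0.32 (SE, adjusted p = 0.972, edgeR).

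Of 18 glycolytic enzymes and lactate handling genes tested, 8 had a rising and 1 a falling slope on time at an unadjusted p under 0.05, where 14.7% and 11.4% of all genes did, and the other 9 did not pass. None passed an adjusted p of 0.05, and none passed between genotypes. Ldha, which turns pyruvate to lactate, had a slope of 0.41 ± 0.09 (adjusted p = 0.110, edgeR), Slc16a3, the lactate exporter MCT4, had 0.44 ± 0.10, the phosphofructokinase Pfkl 0.30 ± 0.07 and the mutase Pgam1 0.37 ± 0.11. Some enzymes of this list had few reads beside their neighbours in the pathway, Gapdh at 1.84 to 8.22 CPM, Eno1 at 1.75 to 5.0 CPM and Pgam1 at 14.7 to 54.1 CPM against 246.5 to 687.8 CPM for Tpi1. Reads with more than 1 alignment stand in a summary row of the deposited counts and not in the counts of genes. How many such reads came from these enzymes was not tested, and the values of Gapdh, Eno1 and Pgam1 are uncertain. Of 9 glucose transporters and regulators tested beside Slc2a1, 0 passed between genotypes and 0 had a slope at an unadjusted p under 0.05.

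Among 35 other hypoxia-induced genes, 1 passed the unadjusted limit, where 7.35% of all genes did. Adm, which encodes the vessel-widening peptide adrenomedullin, had 1.66, 4.40, 3.41 and 4.84 CPM in fx/fx and 8.77, 24.5 and 19.9 CPM in ko/ko at 6, 48 and 72 h. The lines did not overlap, and the log2 fold change was 2.41 ± 0.51 (SE, unadjusted p = 0.00205, adjusted p = 0.0718, edgeR), with an adjusted p of 0.000529 under the block. The library labelled ko/ko, 24 h, had 1.84 CPM, inside the fx/fx range, and with the 24 h pair added the log2 fold change was 1.94 ± 0.68 without the block (adjusted p = 0.483) and 1.66 ± 0.68 with it (adjusted p = 0.196). On time, 12 of the 35 had a rising and 2 a falling slope without adjustment, where 14.7% and 11.4% of all genes did, among them the adenylate kinase Ak4 with 0.68 ± 0.12, the transferrin receptor Tfrc with 0.50 ± 0.11, Adm with 0.39 ± 0.09 and Fam162a with 0.37 ± 0.09. Without the ko/ko library of 6 h 2 genes of the list passed between genotypes, and without that of 72 h 3 did, where 889 and 1343 of all genes passed, against 964 with all 6 libraries.

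Of 5 receptors of the VEGF family, 3 were lower in ko/ko by the unadjusted limit, which 7.35% of all genes passed in either direction. Cell type markers also passed that limit. Both leukocyte markers tested were lower, Cd68 with -1.43 ± 0.51 and Csf1r with -1.62 ± 0.48 on the log2 scale, and the 6 leukocyte markers summed to 4.35 to 14.4 CPM in fx/fx, to 2.95 to 3.79 CPM in ko/ko and to 6.26 CPM in the library labelled ko/ko, 24 h. The epithelial marker Krt14 was lower with -1.38 ± 0.50 and the endothelial marker Tek higher with 1.62 ± 0.55, while of the marker lists of the tissue itself Alpl was lower with -5.61 ± 0.72 (adjusted p = 0.0153, edgeR) and Col3a1 higher with 1.51 ± 0.30 (adjusted p = 0.0534). The part of such cells in the receptor values was not tested. Nrp1, the co-receptor neuropilin 1, had 84.4, 139.9, 172.3 and 195.4 CPM in fx/fx and 36.9, 66.6 and 106.9 CPM in ko/ko at 6, 48 and 72 h, with 85.9 CPM in the library labelled ko/ko, 24 h. Its log2 fold change was -1.12 ± 0.44 (adjusted p = 0.310, edgeR), and -1.15 ± 0.12 with an adjusted p of 0.000834 under the block. The block over 8 libraries gave -1.03 ± 0.13 with an adjusted p of 0.0496. Flt1 and Kdr, the tyrosine kinase receptors, were at -1.39 ± 0.56 and -1.32 ± 0.40 (adjusted p = 0.328 and 0.191). Under the block they had adjusted p-values of 0.00158 and 0.0166 in 6 libraries, and of 0.134 and 0.191 in 8, so that both lost the call when the 24 h pair was added. With all 8 libraries and no block, none of the 5 passed. Leaving out the ko/ko library of 6 h or the fx/fx library of 48 h left 1 of the 5 past the limit. On time, Nrp1 had a slope of 0.36 ± 0.05 and the lymphatic receptor Flt4 of -0.26 ± 0.10 (adjusted p = 0.0918 and 0.171, edgeR).

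Paralogs of the 10 genes did not share one direction. Of 19 tested, 2 were lower in ko/ko by the unadjusted limit, a share near the 7.35% of all genes, Ndrg2 with a log2 fold change of -1.49 ± 0.61 and the placental growth factor Pgf with -1.23 ± 0.40 (adjusted p = 0.337 and 0.231, edgeR). Leaving out the library of 48 h of either line left 1 paralog past the limit, and with all 8 libraries none passed, Ndrg2 being at -0.52 and Pgf at -0.46. Under the block in 6 libraries 3 paralogs passed the adjusted limit, where 8.45% of all genes did, Ndrg2 and Pgf lower (adjusted p = 0.00317 and 0.0371) and Vegfb, another VEGF ligand, higher with 1.1 ± 0.11 (adjusted p = 0.000802). Vegfb had 51.5, 39.7 and 18.1 CPM in fx/fx and 103.7, 92.4 and 38.7 CPM in ko/ko at 6, 48 and 72 h, and without the block its log2 fold change was 1.11 ± 0.49 (adjusted p = 0.368). With the 24 h pair added to the block none of the 3 passed. Of the paralogs, 2 had a rising and 5 a falling slope on time without adjustment (14.7% and 11.4% of all genes). Pdk2, a kinase of the same family as Pdk1, had -0.42 ± 0.11, while the carbonic anhydrase Car12 had 0.66 ± 0.20. Among these paralogs, the rising Egln1 and the falling Egln2 were already counted with the HIF regulators, and Car12 with the other hypoxia-induced genes. Proliferation markers were measured beside these slopes, since culture time also changes growth. Of 12, 3 had a rising slope at an unadjusted p under 0.05, where 14.7% of all genes did. They were Mki67 with 0.28 ± 0.06, Top2a with 0.20 ± 0.06 and Ccna2 with 0.23 ± 0.08. None of the 12 differed between the genotypes by the unadjusted limit, which 7.35% of all genes passed. The part of the proliferation markers in the slopes of the hypoxia genes was not tested.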

How the data were processed

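Total RNA of 8 cultures was sequenced. Per the labels, libraries were made with an Illumina TruSeq kit and read as 50 bases from a single end, whereas the methods of the study name paired reads, and the series text names 8 h where the sample labels name 6 h (the sample labels were followed). The authors aligned reads to mm9 with TopHat2 (2.0.8b, base calls by CASAVA 1.8.2) and counted them per gene with HTSeq. The deposited values are raw counts, 1 table a library. The 5 summary rows (52.0 to 59.0% of the sum over all rows, non-unique alignments alone being 41.3 to 49.6%) were left out of library sizes. Tables of long noncoding RNA were not used here.

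From these counts, edgeR (4.0.16, R 4.3.3) with TMM scaling, filterByExpr (minimum count 10, total 15) and the quasi-likelihood test gave the genotype comparison (6 libraries, 13121 genes), the time slope and the interaction (7 libraries, 13208 genes), with Benjamini-Hochberg adjustment over all genes tested. DESeq2 (1.42.0), limma (3.58.1) on log2 CPM (offset 0.5) and on log2 RPKM (offset 0.1), other scalings, filters, library sets and leaving out each library were the alternatives, and the fx/fx libraries alone were added after the data were seen. Per-library ratios carry 95% counting intervals. Scripts were tested on simulated data. The libraries of equal culture time deviated together, with correlations of 0.713, 0.536 and 0.84 at 6, 48 and 72 h over 13121 genes, and the labels give the time, so time served as the pairing.

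Coordinates of genes come from the mm9 annotation (GENCODE M1), which matched 21627 of 22609 symbols, and promoters from RefSeq on GRCm38.p6, used for sequence alone. The 10 genes, the lists and the tests were chosen with earlier results of these data known. Named list genes were those past the adjusted limit between genotypes, or else up to 3 past the unadjusted limit, and up to 4 per list with the smallest p on time.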

Additional observations from a re-analysis of the deposited data

Results flagged for a closer look

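In groups of 4 libraries, 2 of the 20 groups (10 genes in 2 lines) had a library whose gap to its nearest neighbour took a larger part of the range of the group than the 95% critical value of Dixon's test, where chance gives about 1 in 20 groups of exchangeable libraries, a rate that libraries of different culture times need not follow. Car9 in the ko/ko line was at 8.07 CPM in the library labelled 24 h, with the nearest other library at 3.57 CPM and the lowest at 2.81 CPM, a gap of 0.856 of the range. Pfkfb3 in the ko/ko line was at 31.6 CPM at 72 h, with the nearest at 7.06 CPM, a gap of 0.946 of the range. The Car9 value comes from the library that lay closest to fx/fx at 6 h, where Car9 was 7.56 CPM. The Pfkfb3 value stands beside 28.9 CPM in fx/fx at the same time.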

How the results depend on the processing

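Between genotypes, members past the unadjusted limit (0 as reported) were 1 with DESeq2 and 1 with no filter, both Car9, and past the adjusted limit 1 with DESeq2. Pathway list genes past the unadjusted limit (6) were 1 with all 8 libraries and 3 with limma on log2 RPKM, and past the adjusted limit (0) 1 with 7 libraries, 8 and 1 with culture time as replicate block in 6 and 8 libraries, 1 with DESeq2 and 1 with no filter. Of all genes, 964 passed the unadjusted limit and 463 with all 8 libraries, and 287 the adjusted one, against 0 with all 8 libraries, 1109 and 37 with the replicate block in 6 and 8 libraries, 659 with DESeq2 and 144 with at least 10 counts in every library. With all 8 libraries, 1 gene passed the time trend and 0 members were without overlap (1 as reported). Slc2a1 turned to -0.006 under the block in 8 libraries, and Bnip3 to -0.02 there and to -0.01 with all 8 libraries unblocked. The cause of these shifts was not tested.

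Leaving out each library gave 0 to 1 members, 3 to 9 list genes and 781 to 1343 genes past the unadjusted limit, 0 to 1 list genes and 9 to 378 genes past the adjusted one, 0 to 5 members and 0 to 1069 genes on time, 4 to 7 members on time and 0 to 2 in the interaction without adjustment. By that choice log2 fold changes ran from -0.11 to 0.55 for Slc2a1, -0.23 to 0.62 for Bnip3, -0.55 to 0.05 for Egln3, -0.93 to 0.15 for Hk2, -1.28 to 0.76 for Pfkfb3, 0.02 to 0.91 for Pdk1, 0.32 to 1.12 for Ndrg1, 0.28 to 1.12 for Ankrd37, -0.71 to -0.31 for Vegfa and -1.99 to -0.81 for Flt1. The 24 h differences were recomputed with library size alone, a scaling that shifts all genes alike, and each moved by less than 0.1 on the log2 scale, from -1.19 to -1.14 for Pdk1 and from 1.1 to 1.15 for Car9. Intervals without the block include the change over culture time, and low counts widen the counting intervals of Car9 and Ankrd37.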
